A study of Homo sapiens with 6 samples.

Results

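The genes described here are abundant noncoding RNAs made by RNA polymerase III: RN7SK, RN7SL1, RN7SL2, RMRP, RPPH1, VTRNA1-1 and the Y RNA genes RNY1, RNY3, RNY4 and RNY5. They were chosen by name, and a PAR-CLIP site counted for a gene if its midpoint lay within the GENCODE span of the gene on the gene's strand. A span was found for 8 of the 10 members, and these 8 held 236297 reads over the 6 libraries, out of 46389 genes with any read. RN7SL1 and RPPH1 have no entry in the annotation used here, so 2 loci that were located in another way are described separately at the end. They are left out of the sums over members, except where their inclusion is stated.

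All libraries were made from HEK293, an established line of human embryonic kidney origin, grown with the nucleoside analog 4SU and irradiated at 365 nm. The cells stably carried doxycycline-inducible HuR or GFP, so the precipitated protein was made from a transgene. Both were precipitated with the FLAG M2 antibody after RNase T1 digestion. The 3 background libraries G20, G35 and G45 were slices of the GFP gel at about 20, 35 and 45 kDa, and HuR had 2 replicates. Total was 1 library of lysate that was crosslinked and digested without immunoprecipitation, treated with proteinase K and depleted of ribosomal RNA. Which of the cells gave Total is not given in the sources used here. The labels do not say whether the slices or the HuR replicates came from separate cultures, so p-values measure the spread between these libraries, which may be technical. As a check of the cell line, Total held 3554 reads at IGF2BP1, 1641 at LIN28B, 654 at INA, 364 at NEFL, 102 at PAX2 and 4 at NEFM, all genes known from HEK293. Of the markers of other cell types, HBB and KRT14 had 0 reads, CD3E 1, COL1A2 3, PTPRC 18 and ALB 46.

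RNA polymerase III ends its transcripts at a run of T in the gene, and the resulting short U-tail is bound by the La protein. 7SK RNA holds the elongation factor P-TEFb in an inactive complex, and 7SL RNA is the scaffold of the signal recognition particle that targets secreted proteins. RMRP and the RNase P RNA are the catalytic RNAs of related ribonucleoproteins, vault RNA is part of a large cytoplasmic particle, and Y RNAs bind the Ro60 protein. HuR prefers U-rich and AU-rich stretches, which it is best known to bind in mRNAs. In PAR-CLIP, 4SU crosslinked to protein is read as a T-to-C conversion, so reads and conversions are separate measures of the same site.

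RNY1, RNY4, RNY5 and VTRNA1-1 are shown whole. RN7SK is shown from the first base with a read to the annotated end, because no read lay further 5'. RMRP is shown whole because its sites span it. Positions are counted from 1 at the annotated 5' end. Capitals mark bases that lay under a site in every library with reads at that gene, and lower case marks the rest. No minimum number of reads was set for this. At RNY4 the capitals cover the 3' site only. HuR replicate 1 had 2 reads there and none at the 5' site, which held most reads in the other libraries with reads. At VTRNA1-1 the capitals at 74 to 97 rest on 1 read in HuR replicate 1 and 2 in G35. At RMRP the capitals at 65 to 66, and those from 152 to before 185, also rest on few reads in HuR replicate 1. They lay outside its RMRP sites with 9 or more reads. The sequences are GRCh37, with T for U, at chr7:148684228-148684340 (minus strand), chr7:148660407-148660502 (plus), chr7:148638580-148638658 (plus), chr5:140090860-140090958 (plus), chr6:52860636-52860748 (plus, positions 219 to 331 of the gene at chr6:52860418-52860748) and chr9:35657751-35658014 (minus).
RNY1: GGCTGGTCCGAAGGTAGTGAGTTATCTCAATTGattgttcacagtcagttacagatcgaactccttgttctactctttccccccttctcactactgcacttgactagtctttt
RNY4: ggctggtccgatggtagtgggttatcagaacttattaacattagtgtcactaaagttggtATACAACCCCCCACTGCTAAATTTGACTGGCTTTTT
RNY5: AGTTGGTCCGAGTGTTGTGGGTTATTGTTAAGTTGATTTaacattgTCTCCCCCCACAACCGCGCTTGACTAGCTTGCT
VTRNA1-1: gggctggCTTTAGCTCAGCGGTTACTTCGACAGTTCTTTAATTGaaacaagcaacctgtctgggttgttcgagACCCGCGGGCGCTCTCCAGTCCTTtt
RN7SK: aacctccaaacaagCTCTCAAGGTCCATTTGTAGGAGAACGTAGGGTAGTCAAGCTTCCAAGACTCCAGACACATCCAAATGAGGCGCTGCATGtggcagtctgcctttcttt
RMRP: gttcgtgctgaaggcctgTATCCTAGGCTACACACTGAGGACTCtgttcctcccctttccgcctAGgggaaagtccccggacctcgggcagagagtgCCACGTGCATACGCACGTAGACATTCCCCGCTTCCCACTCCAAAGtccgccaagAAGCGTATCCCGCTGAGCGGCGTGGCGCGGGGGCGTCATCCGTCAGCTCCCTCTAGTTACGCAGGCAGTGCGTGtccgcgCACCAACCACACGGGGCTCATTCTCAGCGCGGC

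The genes differ in how much of them is unique in the genome, which bears on every value here because the authors kept uniquely mapping reads. None of the 20-mers of RN7SK, RN7SL2, RNY1, RNY3 and RNY4 occurred only once in the genome, compared to 95.1% in RMRP and 65.0% in both VTRNA1-1 and RNY5. At 30 bases, 100% of RNY5 and 99.1% of RMRP was unique. RN7SK then had 30 unique 30-mers that started between positions 236 and 302, RN7SL2 had 10 between 257 and 266, and RNY1 had 3 between 1 and 3. RNY3 and RNY4 had none, and their median 30-mer occurred 31 and 8 times. The Y RNAs were also the richest in T, at 33.3% to 36.3% of bases, compared to 17.8% in RN7SL2, 18.9% in RMRP and 22.4% in RN7SK. RNY1 and RNY3 were 72.6% identical over their alignment, and the other pairs of Y RNAs were 57.0% to 65.1% identical.

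Reads were expressed per 1000000 reads of the library's groups table (RPM). The 8 members together held 251 RPM in G20 (95% Wilson interval 245.8 to 255.8), while G35 held 268 (255.9 to 281.7) and G45 held 227 (216.0 to 237.5). HuR replicate 1 held 31.2 RPM (27.8 to 34.9) and replicate 2 held 193 (188 to 198). Total held 6034 RPM (6008 to 6059), so the members were 0.603% of the Total reads and at most 0.0268% of any other library. Intervals cover counting error only, since the reads carried no molecular identifiers, and in lysates less of an RNA per cell and fewer cells holding it cannot be told apart. The slices lay close together and both HuR replicates lay below them, but the replicates lay further from each other than replicate 2 did from the slices. HuR averaged 112 ± 114 RPM (SD, n = 2) and the background 249 ± 21.04 (SD, n = 3), a difference of -137 RPM. The exact two-sided permutation test gave p = 0.2, which is the smallest p that 2 against 3 libraries allow. Without HuR replicate 1 the difference was -55.9 RPM and without replicate 2 it was -217 RPM.

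The depth behind these values differed. The libraries held between 6187300 reads (G35) and 38644636 reads (G20), and 3 reads were worth 0.0776 RPM in G20 and 0.485 RPM in G35. The 10 sites with the most reads took 76.5% of G20 and 61.9% of Total, and 2.46% to 21.1% of the other libraries, which lowers the RPM of all other sites in G20 and Total. With those sites left out of the denominator, the members averaged 562 RPM in the background and 115 in HuR, and 15844 in Total.

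**Figure D1:**
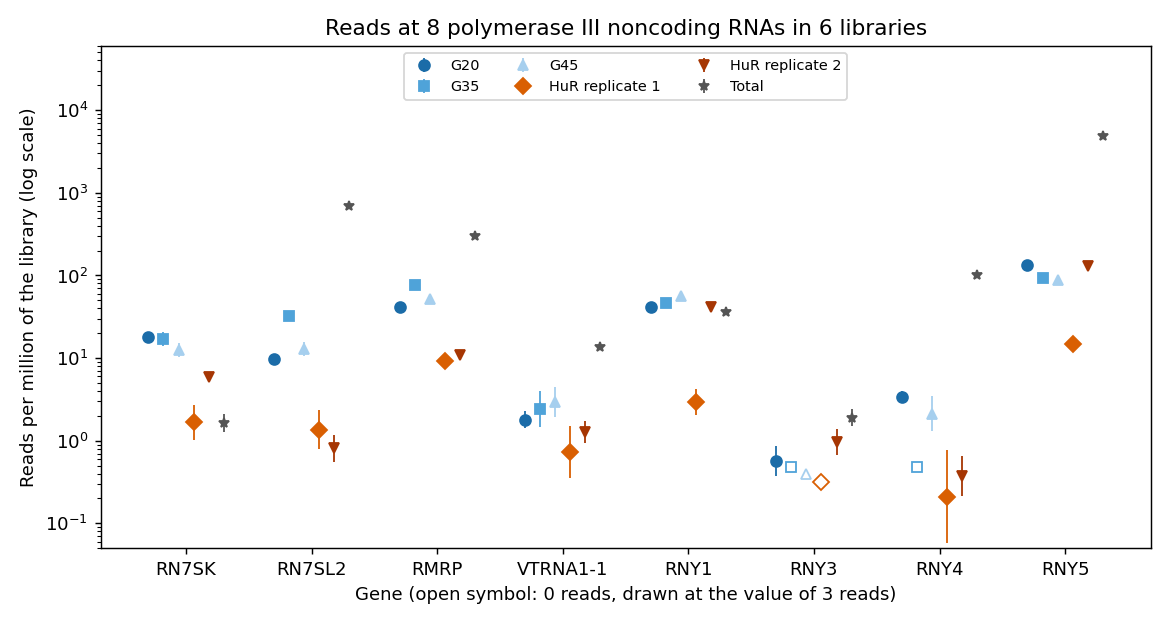
RPM (log scale) at each of the 8 genes in the 6 libraries, 1 symbol per library, with 95% Wilson intervals. Open symbols mark 0 reads and are drawn at the value of 3 reads. Total lies above the other libraries at RN7SL2, RMRP, VTRNA1-1, RNY3, RNY4 and RNY5, at RN7SK the 3 slices lie highest, and the HuR replicates lie far apart at RNY1 and RNY5.

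RN7SK, the RNA of the 7SK particle, stood apart from the other members in its order of libraries. The slices G20, G35 and G45 held 17.9, 17.1 and 12.6 RPM, followed by 5.89 in HuR replicate 2, 1.68 in HuR replicate 1 and 1.64 in Total. The slices were the highest and did not overlap the HuR replicates, and the Wilson intervals of HuR replicate 1 (1.03 to 2.73) and Total (1.27 to 2.12) overlapped. RN7SK was 10.9, 10.4 and 7.67 times higher in G20, G35 and G45 than in Total, and 1.02 and 3.58 times in the HuR replicates. It was the only 1 of the 8 members at least 4-fold higher than Total in each slice, a mark that 3.78% of 23671 genes reached. No test is possible against Total, which was a single library with 59 reads at RN7SK. When the 10 sites with the most reads were left out of the denominators, 0 members and 4.69% of genes reached that mark. Under TMM scaling RN7SK and 14.1% of genes did. All RN7SK reads lay in 1 site per library over the 3' end, within positions 219 to 331, and no read mapped upstream of position 219. All 6 libraries shared positions 233 to 312, and the unique 30-mers start within that stretch. The annotation holds 292 copies of RN7SK, so the level at this gene is not that of all 7SK RNA. Over the copies, described below, the order of libraries was different. Whether the reads assigned here told the gene from its copies was not tested.

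RN7SL2, a gene for the 7SL RNA, also had its slices above HuR, but Total was its highest library. It held 686 RPM in Total and 24649 reads, compared to 32.5 RPM in G35, 12.9 in G45 and 9.83 in G20, and to 1.36 and 0.810 in HuR replicates 1 and 2. Each slice was above both HuR replicates and below Total by 21.1-fold to 69.8-fold. The HuR replicates were 503-fold and 847-fold below Total, on 13 and 26 reads. As at RN7SK, the only site of each library covered the 3' end, from position 228 at the earliest, and it ran 3 to 6 bases past the annotated end at 297. The annotation holds 846 other copies of 7SL, so the level at this gene is not that of all 7SL RNA. Whether the reads assigned here told this copy from the others was not tested.

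RMRP, the RNA of RNase MRP, held 296.5 RPM in Total, 76.9 in G35, 52.3 in G45 and 41.8 in G20. HuR replicates 1 and 2 held 9.24 and 10.8 RPM. The groups did not overlap, and the HuR replicates lay 32.1-fold and 27.4-fold below Total, against 3.85-fold to 7.09-fold for the slices. Sites covered between 75.8% of its bases (HuR replicate 1) and all of them (G20, G45 and Total). They reached from 3 bases before position 1 to as far as 8 bases past the end.

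VTRNA1-1, a vault RNA, had few reads outside Total. It held 13.6 RPM in Total, 2.92 in G45, 2.42 in G35 and 1.79 in G20, with 0.735 and 1.28 in HuR replicates 1 and 2, on 7 and 41 reads. Both HuR values were below each slice, although the intervals of G20 (1.41 to 2.26) and HuR replicate 2 (0.941 to 1.73) overlapped. G20 and Total had 1 site over the whole RNA and the other libraries 2 or 3 sites, and the bases shared by all libraries were positions 8 to 44 and 74 to 97.

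RNY5 held the most reads of any member in every library, from 34.5% of member reads in G35 to 81.2% in Total. It held 4897 RPM in Total, 134 in G20, 92.6 in G35 and 88.1 in G45. HuR replicate 2, at 131 RPM, lay among the slices, and HuR replicate 1, at 15.0 RPM, lay below them. The groups therefore overlapped. Sites ran over all its bases, apart from a gap of 7 bases (40 to 46) in G35, and 4 or 5 bases past the annotated end at 79.

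RNY1 was the only Y RNA at which Total was not the highest. It held 55.7 RPM in G45, 46.9 in G35, 41.5 in HuR replicate 2, 41.2 in G20, 36.3 in Total and 2.94 in HuR replicate 1. HuR replicate 2 and G20 had overlapping intervals, and only HuR replicate 1 stood apart. At least 96.7% of its reads in any library lay at a site over the first 20 bases, and bases 1 to 33 were covered in all 6 libraries. The second site, over positions 68 to 109, held 5 reads in G20, 2 in G35, 8 in HuR replicate 2 and, with 31 bases past the annotated end, 43 in Total.

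RNY4 and RNY3 were rare outside Total. RNY4 held 100.7 RPM in Total, 3.42 in G20 and 2.12 in G45, and 0.374 in HuR replicate 2 on 12 reads. G35 had 0 reads, which is 208-fold lower than Total if the count is set at 3 reads. HuR replicate 1 had 2 reads or 0.210 RPM (0.0576 to 0.766). RNY4 reads split between a 5' site that ended at position 44 or 45 and a 3' site that ended at 96 or 97, and the 5' site held 81.3% to 91.7% of reads in the 4 libraries that had it. RNY3 held 68 reads in Total, 31 in HuR replicate 2 and 22 in G20, or 1.89, 0.965 and 0.569 RPM, and 0 in the other 3 libraries. The 95% Wilson interval of a count of 0 reaches 0.621 RPM in G35, 0.509 in G45 and 0.403 in HuR replicate 1. The interval of G20 (0.376 to 0.862) reaches below the limits of G35 and G45, so a difference between G20 and these 2 slices was not detectable at this depth.

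Against Total, 4 of the 8 members (RN7SL2, VTRNA1-1, RNY4 and RNY5) were at least 4-fold lower in each slice, compared to 10.6% of 23671 genes. In both HuR replicates 5 were (the same 4 and RMRP), compared to 3.17% of 29860 genes, and 0 were at least 4-fold higher, compared to 22.4%. These shares of all genes move with the scaling. Without the 10 sites with the most reads, 5 members and 23% of genes were lower in the slices, and 6 members and 9.33% of genes in HuR. Under TMM scaling it was 3 members and 1.70% of genes in the slices, and 6 members and 8.27% of genes in HuR. The share of genes higher in HuR was 6.27% and 6.85% in these settings, with 0 members. Counts under 3 reads were set at 3 for this. Total had been depleted of ribosomal RNA and had not passed a gel slice or an antibody, so the steps that set it apart cannot be told apart here.

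The reads were then compared between HuR and the background by edgeR's quasi-likelihood test over 21334 genes, with Benjamini-Hochberg adjustment over all of them and trimmed-mean (TMM) scaling. All 8 members passed the filter on low counts and all had a negative fitted log2 fold change, although that of RNY3 turned positive with library totals alone as the scale. The median log2 fold change (HuR minus GFP) was -4.08 over the members and -0.02 over all genes tested. Of the 8, 5 had an adjusted p under 0.05, and all 5 were lower in HuR, compared to 4.21% of all genes called lower and 1.18% called higher. RN7SL2 had a log2 fold change of -6.06 (SE 1.06, edgeR adjusted p = 4.6e-04). For RNY4 it was -5.52 (SE 1.42, edgeR adjusted p = 0.0137), for RMRP -4.69 (SE 1.03, edgeR adjusted p = 0.00378) and for RN7SK -4.62 (SE 1.00, edgeR adjusted p = 0.00347). RNY1 had -3.55 (SE 1.02, edgeR adjusted p = 0.0279). VTRNA1-1, RNY5 and RNY3 did not pass, at -3.46, -3.24 and -2.12 with edgeR adjusted p of 0.0619, 0.0673 and 0.426. By unadjusted p, 7 of the 8 were under 0.05, all lower, compared to 12.9% of all genes lower and 11.4% higher. DESeq2 called 7 members lower and 0 higher, compared to 9.45% and 3.10% of all genes.

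These calls were lost when any library other than G35 was left out, and most were lost with library totals alone as the scale. With DESeq2's size factors in edgeR, 4 members were still called lower, and RNY1 was not (edgeR adjusted p = 0.0511). Without HuR replicate 1, HuR replicate 2, G20 or G45 the number of members called was 0, and without G35 it was 4 (7 members were tested without G20 or without HuR replicate 2). The calls over all genes then fell to 0 to 46 as well. The median log2 fold change of the members tested stayed between -3.65 and -5.53 in those 4 fits and was -4.72 without G35, and that of RN7SL2 lay between -5.56 and -6.63 over all 5. With library totals alone as the scale, the median of all genes moved to 1.90, 4967 genes were called higher and 106 lower in place of 252 and 899, and 1 member (RN7SL2, log2 fold change -4.09, edgeR adjusted p = 0.0315) was called. On that scale the median of the members was -1.63, RNY5 had -0.52, and RNY3 turned to 1.08. On unscaled RPM both HuR replicates lay below each slice at 4 of the 8 members (RN7SK, RN7SL2, RMRP and VTRNA1-1), compared to 2.24% of the genes tested. They lay above each slice at 0 members, compared to 57.4% of genes.

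**Figure D2:**
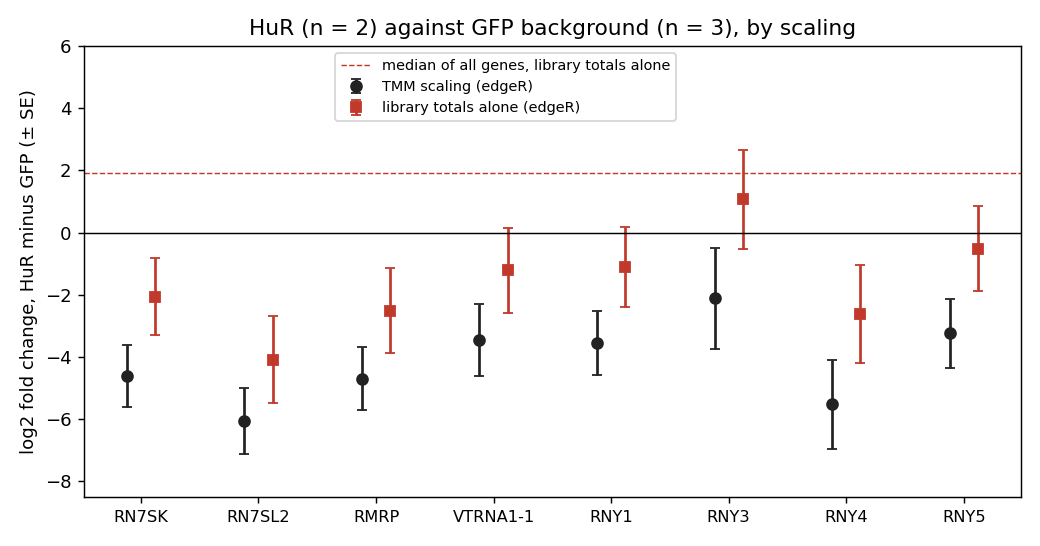
Log2 fold change of each gene, HuR (n = 2) minus GFP background (n = 3), from edgeR with its standard error, after TMM scaling (black circles) and by library totals alone (red squares). The dashed line is the median of all genes under library totals, 1.90. Each gene lies below 0 after TMM scaling, and RNY3 lies above 0 under library totals.

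T-to-C conversions separated HuR from the background more evenly than reads did. Over the 8 members the slices G20, G35 and G45 had 8.89, 16.9 and 13.0 conversion events per 100 reads, compared to 79.1 and 81.5 in HuR replicates 1 and 2. Total had 4.69. A read can hold up to 2 events, so the value is not a share of reads. The HuR mean was 80.3 ± 1.71 (SD, n = 2) and the background mean 12.9 ± 4.02 (SD, n = 3), with p = 0.2 in the exact two-sided permutation test, again the smallest possible. Leaving out any 1 library gave a difference between 65.4 and 69.4. The difference of 67.4 fell to 55.0 without RNY5, to 45.5 without RNY1 and RNY5, and to 22.9 without each member's site with the most reads, where the exact permutation p was 0.4.

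The members' values did not follow those of their libraries. Taken over all sites, G35 and G45 had 61.7 and 56.2 events per 100 reads, above the 48.6 of HuR replicate 1, whereas at the members both slices lay far below it. Over the 10853 genes with 10 or more reads in each of the 5 libraries, the median events per 100 reads were 33.3, 76.2 and 61.1 in the slices G20, G35 and G45, 82.7 and 97.5 in HuR replicates 1 and 2, and 21.03 in Total. Of those genes, 39.5% had both HuR replicates above each slice. Of the members, 5 had that depth and 3 of them (RNY1, RNY5 and RMRP) had both HuR replicates above each slice, while at RN7SK and RN7SL2 the groups overlapped. RNY1 had a lower value than most of these genes in the slices, since 2.45% to 3.18% of genes had fewer events, compared to 44.7% and 20.7% in HuR replicates 1 and 2. For RNY5 these shares were 4.32% to 7.59% in the slices and 54.0% and 35.2% in HuR. The other 3 members did not show this gap in both replicates. RMRP had 3.87% to 8.11% in the slices, and 43.1% and 6.47% in HuR replicates 1 and 2. RN7SK had 4.87%, 60.3% and 35.1% in G20, G35 and G45, and 57.6% and 25.2% in HuR. RN7SL2 had 1.66% to 7.48% in the slices, and 4.70% and 11.8% in HuR.

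RNY1 and RNY5 had sites of similar depth in G20 and HuR replicate 2. The 5' site of RNY1 held 1589 reads and 86 events in G20 and 1326 reads and 903 events in HuR replicate 2. Over both sites RNY1 had 5.40, 3.45 and 1.67 events per 100 reads in G20, G35 and G45, 6.74 in Total, and 78.6 and 68.1 in HuR replicates 1 and 2. The slices were all below Total and both HuR replicates above it. The clusters that PARalyzer drew on this site had their mode at position 22 in G20 and Total, 23 in HuR replicate 2 and 24 in HuR replicate 1. In G35 and G45 the mode was at 17 and 33, on 10 and 7 events.

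At RNY3 the site of G20 and that of HuR replicate 2 had the same first and last base, from 2 bases before position 1 to position 36. G20 had 0 events in 22 reads, which allows up to 13.6 events per 100 reads, and HuR replicate 2 had 43 events in 31 reads at 8 locations. Total had 6 events in 68 reads. There was no second HuR or background library with RNY3 reads.

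RNY5 had 10.6, 7.33 and 13.6 events per 100 reads in G20, G35 and G45, 85.3 and 89.7 in HuR replicates 1 and 2, and 3.29 in Total. G20 had 552 events in 5184 reads and HuR replicate 2 had 3772 events in 4206 reads. In Total, the cluster over positions 0 to 35 had 5619 events in 79771 reads, or 7.04 per 100, and the cluster over 36 to 83 had 167 events in 96148 reads, or 0.174 per 100. In G20, 4861 reads lay in the 5' cluster with 10.8 events per 100 reads and 328 in the 3' cluster with 8.23. G35 had 8.57 in the 5' cluster on 467 reads and 1.89 in the 3' cluster on 106 reads. In HuR replicate 1 the 5' cluster had 80 events in 83 reads and the 3' cluster 41 events in 61 reads. HuR replicate 2 and G45 had a single cluster over the whole RNA. In each of these 4 libraries the 3' cluster had fewer events per 100 reads than the 5' cluster.

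At RNY4 the groups overlapped. It had 21.2 events per 100 reads in G20, 50 in G45, 18.1 in Total and 16.7 in HuR replicate 2, on 132, 16, 3618 and 12 reads. The 2 reads of HuR replicate 1 held 2 events.

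**Figure D3:**
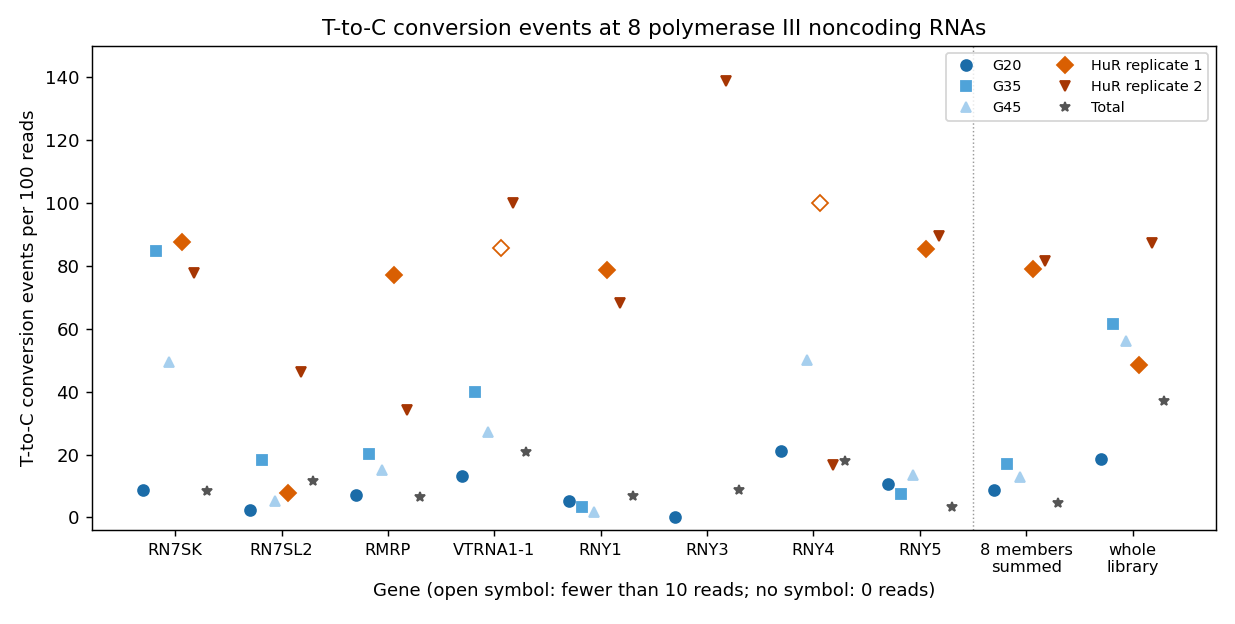
T-to-C conversion events per 100 reads at each gene in the 6 libraries, with the sum of the 8 genes and the whole library at the right of the dotted line. Open symbols rest on fewer than 10 reads, and a gene without reads in a library has no symbol. The HuR replicates lie at 79.1 and 81.5 over the 8 genes and the slices between 8.89 and 16.9, although G35 and G45 lie above HuR replicate 1 over the whole library.

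Among the other RNAs, RMRP had 7.17, 20.2 and 15.0 events per 100 reads in G20, G35 and G45, 77.3 and 34.3 in HuR replicates 1 and 2, and 6.51 in Total. Its conversions were uneven along the RNA. The cluster that ends at position 225 had 90.4 events per 100 reads in HuR replicate 1 (positions 187 to 225, 52 reads), 77.1 in G35 (187 to 225, 35 reads), 58.8 in HuR replicate 2 (157 to 225, 34 reads) and 35.6 in G45 (171 to 225, 59 reads). In each of these 4 libraries it had the most events per 100 reads of any RMRP cluster. In Total the nearest cluster, over 185 to 221, had 3.91 on 486 reads, the lowest of its 3 clusters. VTRNA1-1 had 13.0, 40 and 27.3 events per 100 reads in the slices, 85.7 and 100 in HuR replicates 1 and 2, on 7 and 41 reads, and 20.9 in Total. RN7SK did not separate the groups. It had 84.9 in G35, 87.5 and 77.8 in HuR replicates 1 and 2, 49.5 in G45, 8.82 in G20 and 8.47 in Total, so G35 lay between the HuR replicates. RN7SL2 had 46.2 in HuR replicate 2 on 26 reads and 7.69 in HuR replicate 1 on 13 reads, with 2.37 to 18.4 in the slices and 11.5 in Total.

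The position of sites differed between genes. Sites that overlapped the last 20 bases held 100% of the reads of RN7SK and RN7SL2 in each library, and at most 3.30% of those of RNY1. Over all members they held 82.2% of reads in G20, 33.5% in G35, 61.0% in G45, 63.6% and 72.8% in HuR replicates 1 and 2 and 97.9% in Total. A site that spans a whole RNA, as at RNY5, counts at both ends, so these shares follow how sites were merged. RNase T1 cuts after G. The last base was G at 9.09% to 64.3% of the 10 to 14 member sites of a library, compared to 46.0% to 95.2% of all its sites, and lower than the library's own value in each of the 6. The base before the site was G at 40.0% of member sites in G20 and G45, 45.5% in G35, 78.6% and 35.7% in HuR replicates 1 and 2 and 54.5% in Total. For all sites it was 70.4%, 40.4% and 42.7% in G20, G45 and G35, 65.4% and 62.6% in HuR and 82.4% in Total, so the members were higher in G35 and HuR replicate 1 by this measure. On the opposite strand of the members there was 1 read, in HuR replicate 1. Within 200 bases outside the spans there were 0 to 26 reads per library.

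**Figure D4:**
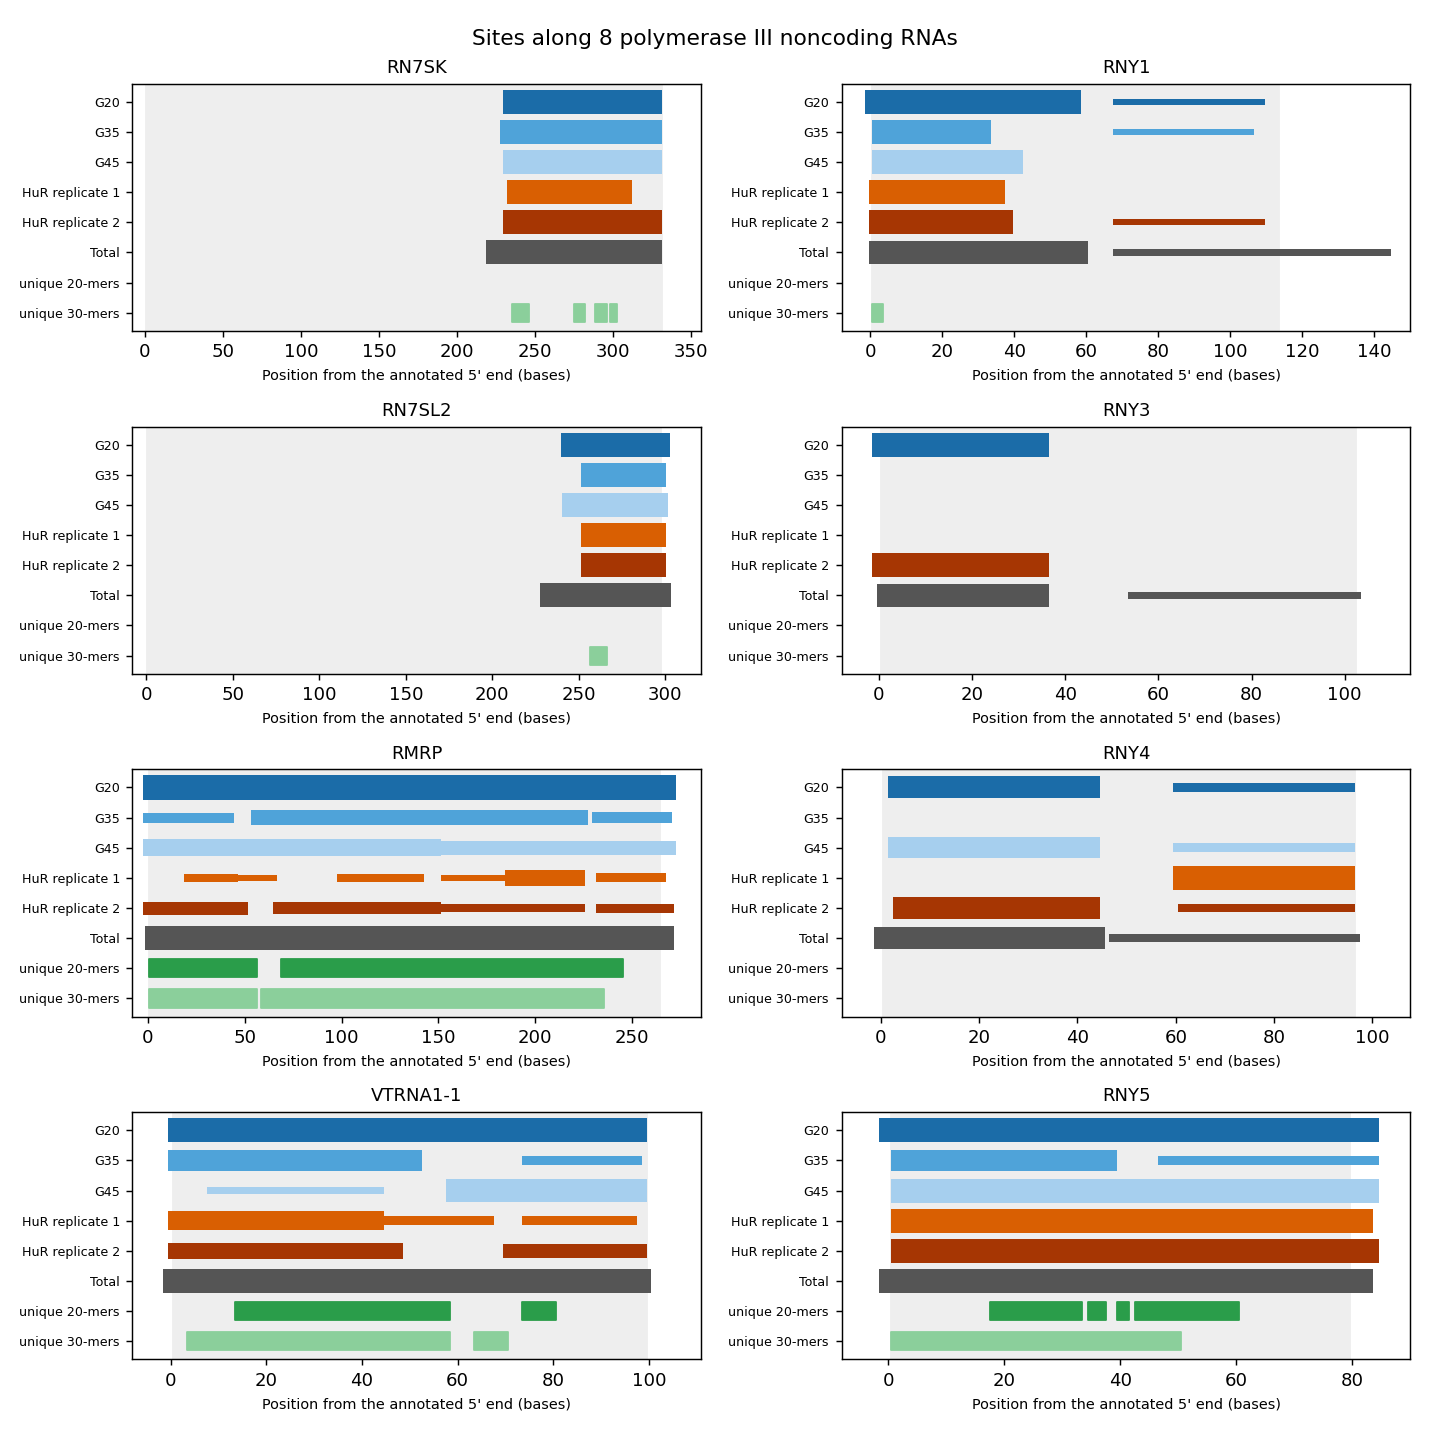
Sites along each gene by library, with position in bases from the annotated 5' end and the annotated span in grey. A bar runs from the first to the last base of a site, and its height grows with the site's share of the gene's reads in that library. The lower rows mark the first bases of 20-mers and 30-mers found once in the genome. Sites of RN7SK and RN7SL2 lie over the 3' end in all libraries, and those of RNY1 mostly over the first 60 bases.

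The 2 loci outside the members resembled them. The first is a 7SL copy on the strand opposite RPS29, which shared 293 of 297 bases with RN7SL2, or 98.7%. RefSeq, on GRCh38.p14, lists RN7SL1 within the bounds of RPS29. It held 411 RPM in Total, 28.6 in G35, 6.37 in G45 and 3.55 in G20, and 0.840 and 0.685 in HuR replicates 1 and 2. The other is ENSG00000259001, annotated as a lncRNA, at chr14:20811207-20811844 (minus strand) next to PARP2, and RefSeq lists RPPH1 as a neighbour of PARP2. Whether these loci are RN7SL1 and RPPH1 was not settled here. It held 170200 reads or 4738 RPM in Total, 158 RPM in G20, 62.2 in G45 and 53.3 in G35, and 6.40 and 8.16 in HuR replicates 1 and 2. All its sites lay between positions 271 and 619 of 638. Both were lower in HuR than in the background, with log2 fold changes of -5.78 (SE 1.10, edgeR adjusted p = 9.1e-04) and -6.50 (SE 1.32, edgeR adjusted p = 0.00183). As for the members, both calls were lost with clusters tables and when any library other than G35 was left out, and that of the lncRNA was lost with library totals alone (log2 fold change -3.64, edgeR adjusted p = 0.0599). The events per 100 reads of the lncRNA were 1.63 in Total, 2.96, 21.2 and 11.7 in G20, G35 and G45, and 54.1 and 48.5 in HuR replicates 1 and 2.

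Pseudogene copies of these RNAs are numerous in the annotation. There were 292 copies of RN7SK, 846 of 7SL and 855 of Y RNA, of which 175, 365 and 400 had reads, and 2 of 5 RMRP copies had 1 read each, RMRPP2 in G45 and the other in Total. The 2 RPPH1 copies had 0 reads. Reads of a transcript that contains a copy are counted with the copy, so these values are not those of the copy's own RNA alone. In Total the Y RNA copies together had 4664 reads and the 4 Y RNA genes 180907. Copies also had fewer reads than the genes in G35 (848 and 863) and G20 (1094 and 6932), and more in G45 (2703 and 1100) and HuR replicate 2 (6545 and 5583). HuR replicate 1 had 8134 reads at copies and 173 at the genes, and 7760 of the 8134 lay at 1 copy, ENSG00000199584, at chr12:128103881-128103992 (minus strand). That copy held 815 RPM in HuR replicate 1, 333 in G45, 104 in G35, 23.01 in HuR replicate 2, 17.2 in G20 and 3.12 in Total, so the HuR replicates lay on either side of G35 and G45. The 7SL copies together held 36.5, 51.2 and 33.6 RPM in G20, G35 and G45, 40.1 and 58.4 in HuR replicates 1 and 2, and 251 in Total. Over these copies HuR did not lie below the slices, unlike at RN7SL2. In HuR the copies had 382 and 1876 reads, compared to 13 and 26 at RN7SL2. The 7SL copy with the most reads, RN7SL499P, held 123 RPM in Total, at most 5.82 RPM in the slices and 0 reads in HuR. The RN7SK copies together had more reads than the gene in each library except G20 (378 and 692), with 1947 and 59 in Total. They held 9.78 RPM in G20 to 66.6 in G45 among the slices, 52.9 and 29.2 in HuR replicates 1 and 2, and 54.2 in Total. Over these copies Total was not the lowest library and HuR did not lie below the slices, unlike at RN7SK. RN7SKP37 held 33.0 RPM in Total and 0.543 to 7.27 RPM elsewhere, so its highest library was the one in which RN7SK was lowest.

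Of 28 other polymerase III genes with an entry, 9 had reads and 4 could be tested. RNA5S9, a 5S ribosomal RNA gene, was lower in HuR, with a log2 fold change of -3.12 (SE 0.919, edgeR adjusted p = 0.0320). It held 69.5 RPM in G35, 27.5 in HuR replicate 2, 20.6 in G45, 15.7 in G20 and 5.25 in HuR replicate 1, and 7 reads in Total, the library depleted of ribosomal RNA. On these RPM values the groups overlapped. The vault RNA VTRNA1-3 held 606 RPM in Total and 0.840 to 2.41 RPM elsewhere, and did not pass (log2 fold change -3.15, edgeR adjusted p = 0.0905). VTRNA1-2 held 371 RPM in Total, 4.27, 8.57 and 5.84 in G20, G35 and G45, and 8.71 and 14.2 in HuR replicates 1 and 2. Both its HuR values were above each slice on RPM, whereas its log2 fold change after TMM scaling was -1.29 and did not pass (edgeR adjusted p = 0.360). RN7SL3 did not pass either, at -4.69 with an edgeR adjusted p of 0.0519. VTRNA2-1 had 20 reads in G35, 2 in G45 and 0 in the other libraries, and was not tested. Of the 4 tested, edgeR called 0 higher in HuR, also by unadjusted p, and DESeq2 called 3 lower and 0 higher.

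The proteins that these RNAs bind are made from mRNAs, and reads at their genes were compared as well. Of 28 listed genes, 26 were tested and 1 passed, which is close to the 4.21% of all genes called lower. MEPCE, the 7SK capping enzyme, was lower in HuR with a log2 fold change of -3.02 (SE 0.955, edgeR adjusted p = 0.0481). It held 11.9, 9.37 and 4.38 RPM in the 3 slices, and 4.93 and 8.53 RPM in HuR replicates 1 and 2, so on RPM the groups overlapped. By unadjusted p, 5 of the 26 were higher and 3 lower in edgeR, compared to 11.4% and 12.9% of all genes. DESeq2 called 0 higher and 3 lower, compared to 3.10% and 9.45%. The median log2 fold change was -0.50 over the 26, from -3.84 to 2.19. For the 6 protein genes of the signal recognition particle it was 1.89, and none passed (smallest edgeR adjusted p = 0.111). For the 10 of RNase P and MRP it was -1.22, with a smallest edgeR adjusted p of 0.0948.

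The summed RPM of the members was most like that of U2AF1L4, PHB2 and ATP6V0C among 19645 other genes. These encode a splicing factor subunit-like protein, a prohibitin and a subunit of the proton pump of acidic organelles. Pearson's r of log2(RPM + 1) over the 6 libraries was 0.998, 0.986 and 0.986. All 3 are protein-coding genes, and like the members each was highest in Total and lowest in HuR replicate 1. The 6 points share their libraries and depths with the members, so r is a description only. U2AF1L4 held 3.92 RPM in Total and 0.210 in HuR replicate 1, far below the members' 6034 and 31.2.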

How the data were processed

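Reads of 6 PAR-CLIP libraries of HEK293 cells were compared at polymerase III genes. The authors sequenced single reads of 50 bp, removed adapters, dropped reads under 10 bp, mapped the rest to hg19 with bowtie, named without a version in their processing notes, and passed uniquely mapped reads, allowing at most 2 mismatches of the T-to-C kind, to PARalyzer. Removal of PCR duplicates is not given in the sources used here. The deposited values are unnormalized counts of reads, conversion locations and conversion events per site, for groups (any read) and clusters. Sampled site sequences in every table were checked against GRCh37, the same build, and all matched.

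The members and lists were chosen with earlier results of these data known. Sites were assigned by midpoint to the shortest GENCODE release 44 gene on the strand, with overlapping entries of 1 symbol merged and the 7SL copy opposite RPS29 added. Reads per gene were tested with edgeR 4.0.16 (10 or more reads in at least 2 of 5 libraries, threshold 0.05, library sizes set to all reads of the groups table), without Total. DESeq2 1.42.0 was an alternative. Exact permutation tests used scipy 1.17.1. Exact 20-mers and 30-mers were counted on both strands of chromosomes 1 to 22, X, Y and M. The Y RNAs were aligned globally with Biopython 1.88. The edgeR and k-mer steps were tested on simulated data. The edgeR step recovered 18 of 100 genes changed 8-fold and 84 of 100 changed 32-fold. Beside these it made 11 false calls, over 20212 genes tested. The simulated means were proportional to the library totals, so the scaling on which the member calls depend was not checked by it. All 8 members are named. Other polymerase III genes are named up to 5 by summed RPM, protein genes if past the threshold, 1 copy per family by reads, and the 3 genes nearest in profile. Alternatives changed scaling, tool, filter, site assignment, site kind, denominators, read minimum and libraries. The sequences of RNY3 and RN7SL2 are not reported here.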

Additional observations from a re-analysis of the deposited data

Results flagged for a closer look

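At RNY1, the background slices and the HuR replicates lay on opposite sides of Total in T-to-C conversion events per 100 reads. The HuR mean minus Total was 66.6, and both replicates were above Total. The mean of the slices minus Total was -3.24, and all 3 slices were below Total. G20, G35 and G45 had 5.40, 3.45 and 1.67 events per 100 reads against 6.74 in Total, with only 10 and 7 events in G35 and G45. The share of all genes with this pattern is not given here. This opposite movement was not tested, and Total is a single library. No other member with reads in all 6 libraries did so, in conversions or in RPM.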

How the results depend on the processing

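No paired analysis was possible because the labels number only the HuR libraries, so the groups share no replicate numbers. Over all genes, 252 were higher and 899 lower in HuR. The counts of genes higher were 88 with DESeq2's size factors in edgeR, 4967 with library totals alone, 661 with DESeq2 and 0 with clusters tables, where 2474 genes had an unadjusted p under 0.05. The counts of genes lower were 106 with library totals alone, 2016 with DESeq2 and 0 with clusters tables. Leaving out 1 library gave 0 to 41 genes higher and 0 to 350 lower, with 1950 to 5183 at an unadjusted p under 0.05, and 0 to 4 members lower. The number of members called lower was 1 with library totals alone and 0 with clusters tables. RNY3 turned to a log2 fold change of 1.08 with library totals alone. The summed RPM of the background was 90.8 with sites wholly within the span, 562 without the 10 sites with the most reads and 297 with clusters tables. In HuR, from 112, these were 10.9, 115 and 195, so HuR was 12.0%, 20.4% and 65.6% of the background in place of 45.0%. In Total these were 1.64, 15844 and 9025, and 6860 without the mitochondrial genome. The 1.64 RPM was that of RN7SK alone, because every Total site of the other members reached past an annotated end. Without the 10 sites with the most reads, 0 members were 4-fold higher than Total in each slice. With each site counted once, the first 20 bases held 48.8% in place of 73.0% of the background and 35.7% in place of 77.6% of HuR, and the last 20 bases held 46.4% in place of 68.2% of HuR. At 30 bases, 2 members had no unique k-mer in place of 5. The difference in summed RPM ranged from -217 to -55.9 with 1 library left out. It was -105 without RNY5, -447 without the 10 sites with the most reads, and -233 with the 2 other loci, which was chosen after seeing the data, as were the conversion differences without RNY5, without RNY1 and RNY5 and with 1 library left out. The cause of these changes was not tested. Depth limits RN7SL2, VTRNA1-1, RNY3 and RNY4, which had at most 41 reads in either HuR library, and RN7SK and RNY1 in HuR replicate 1, with 16 and 28 reads.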
